A study of Homo sapiens with 2 samples.

Results

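Divergent transcripts are long non-coding RNAs that start close to a protein-coding gene and run away from it on the opposite strand, and their gene symbols end in -DT after the name of that neighbour. Of 16978 genes in the deposited table, 75 on chromosomes 1 to 22 carried such a symbol, with 223 of 47892 transcripts. No other gene had a symbol of this kind. Expression was compared between 1 library of parental SKOV3 cells, a human ovarian cancer line labelled WT and untreated, and 1 library of SKOV3-OR. The resistant line, also labelled WT, was derived from SKOV3 by continuous exposure to the PARP inhibitor olaparib at its half-IC50 for at least 3 months. Both libraries were made from ribosomal RNA-depleted total RNA. With 1 library per group there is no replicate check, no test and no p-value of a difference, so all differences below describe these 2 libraries.

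Most promoters of mammalian genes on CpG islands fire in both directions. The upstream product is usually capped but short-lived: it meets early cleavage and polyadenylation signals, or the Integrator complex, and is degraded by the nuclear RNA exosome with its adaptors NEXT and PAXT. Named -DT genes are products of this kind that have been annotated as genes, many of them spliced. The 2 RNAs of a pair share an open stretch of chromatin, while their stability after transcription can differ.

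In GENCODE release 29 all 75 -DT genes lay on the strand opposite to the gene named before the hyphen, and all 75 of these partner genes were protein-coding. Of the 223 transcripts, 156 were in that release, where 72 were lincRNAs, 68 antisense RNAs, 10 retained-intron transcripts and 6 bidirectional promoter lncRNAs. These 156 had a median of 3 exons, and 18 had a single exon. RefSeq (GRCh38.p14) held start sites for both genes of 53 pairs, and all 53 pairs were on opposite strands. The median distance from the -DT start to the partner start was 154 bases, and the middle part of the distribution ran from 101 to 226 bases. In 41 pairs the starts were 0 to 300 bases apart, in 6 pairs over 300 and up to 1000, and in 3 pairs over 1000. In the other 3 pairs (CTBP1-DT, RELA-DT and LGALSL-DT) the -DT start lay on the partner's side of the partner start, so that the 5′ ends overlap. Of 58 RefSeq starts of -DT genes, 47 had a start listed in the deposited table within 100 bases.

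**Figure D1:**
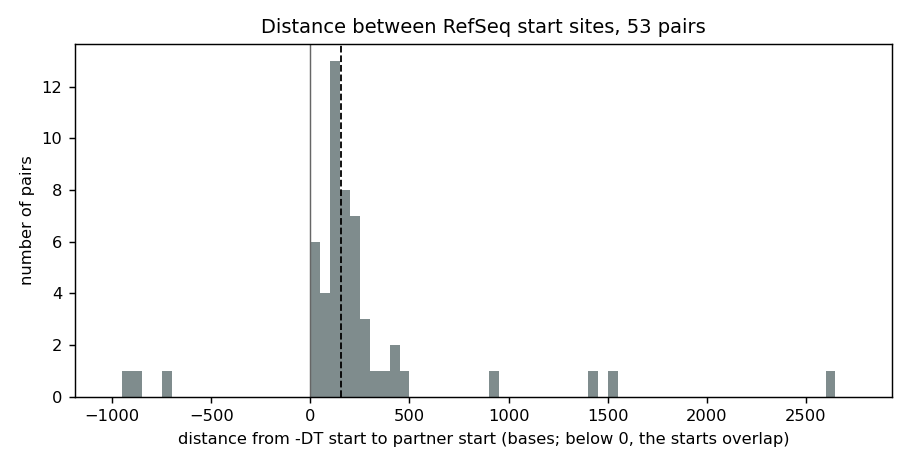
Distance in bases between the RefSeq start site of a divergent transcript and that of its partner (x axis) against the number of pairs (y axis), for 53 pairs. The dashed line is the median of 154 bases, and 41 pairs lie between 0 and 300.

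The promoter windows of 4 -DT genes are shown because these genes carry the results below: NUP50-DT had the lowest log2 ratio, GAS6-DT and GMDS-DT the highest, and NIPBL-DT the largest listed value. Each window is from RefSeq, build GRCh38.p14, reads 5′ to 3′ along the -DT strand, and covers 250 bases before and 50 bases after the -DT start. The window of NUP50-DT is chr22:45163732-45164031 on the minus strand, with the NUP50 start 144 bases upstream. That of GAS6-DT is chr13:113863927-113864226 on the plus strand, with the GAS6 start 101 bases upstream. That of GMDS-DT is chr6:2245503-2245802 on the plus strand, with the GMDS start 148 bases upstream. That of NIPBL-DT is chr5:36876645-36876944 on the minus strand, with the NIPBL start 75 bases upstream. Each window therefore holds both RefSeq starts. The NUP50-DT window holds the listed start of NUP50-DT-201 (45163781) but not that of NUP50-DT-203 (45152623), in which the lower NUP50-DT sum lay. Capitals mark matches on either strand to the 6 short motifs spelled out in the next paragraph.
NUP50-DT: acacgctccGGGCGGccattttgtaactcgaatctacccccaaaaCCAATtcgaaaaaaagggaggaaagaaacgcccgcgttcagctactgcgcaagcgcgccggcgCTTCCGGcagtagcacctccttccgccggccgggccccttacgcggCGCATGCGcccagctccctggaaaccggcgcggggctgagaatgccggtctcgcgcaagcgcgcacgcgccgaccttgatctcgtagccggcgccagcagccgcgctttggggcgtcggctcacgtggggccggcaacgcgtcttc
GAS6-DT: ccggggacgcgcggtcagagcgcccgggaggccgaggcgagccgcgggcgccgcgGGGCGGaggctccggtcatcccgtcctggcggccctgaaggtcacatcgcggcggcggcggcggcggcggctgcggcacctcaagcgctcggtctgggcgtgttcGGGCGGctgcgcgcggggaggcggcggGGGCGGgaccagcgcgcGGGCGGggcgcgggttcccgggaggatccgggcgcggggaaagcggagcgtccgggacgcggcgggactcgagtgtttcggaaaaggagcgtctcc
GMDS-DT: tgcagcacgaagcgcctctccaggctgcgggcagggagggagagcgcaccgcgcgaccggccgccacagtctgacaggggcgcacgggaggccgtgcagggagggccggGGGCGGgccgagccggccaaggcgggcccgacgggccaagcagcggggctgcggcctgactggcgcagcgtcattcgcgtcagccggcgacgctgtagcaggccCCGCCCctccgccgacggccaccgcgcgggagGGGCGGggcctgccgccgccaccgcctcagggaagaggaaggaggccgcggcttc
NIPBL-DT: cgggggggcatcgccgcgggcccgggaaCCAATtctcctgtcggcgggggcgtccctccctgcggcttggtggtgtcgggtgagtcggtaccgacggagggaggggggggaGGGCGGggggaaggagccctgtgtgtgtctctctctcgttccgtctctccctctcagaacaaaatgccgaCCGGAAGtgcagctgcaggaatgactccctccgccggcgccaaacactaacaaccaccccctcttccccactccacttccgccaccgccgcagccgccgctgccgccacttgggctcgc

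The NUP50-DT window held a GC box, a CCAAT box, an ETS core and 2 overlapping matches to the NRF1 core. GAS6-DT held 4 GC boxes, GMDS-DT held 3 GC boxes, and NIPBL-DT held a CCAAT box, a GC box and an ETS core. The GC box, searched as GGGCGG, was found in 49 of 58 -DT windows (84.5%), in 77.4% of 53 partner windows and in 44.6% of 27305 RefSeq windows of the same length. The ETS core, searched as CCGGAAG, was found in 25.9% of -DT windows, 26.4% of partner windows and 10.7% of all. For the NRF1 core, GCATGCG, the shares were 13.8%, 13.2% and 4.13%. For the YY1 core, ATGGCGG, they were 12.1%, 15.1% and 5.72%. The TATA box, searched as TATAAA, was found in 5.17% of -DT windows and 11.95% of all, and the CCAAT box, searched as CCAAT, in 36.2% and 35.7%. A pair of neighbouring windows overlaps, so partner and -DT shares are not independent. The median GC content was 69.3% in -DT windows, 68.0% in 53 windows of their partners and 58.3% in all windows. The median ratio of observed to expected CpG was 0.913, 0.911 and 0.580 in the same order. These shares describe letters in a window and were not tested, and a match is not a bound site.

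The table gives 1 listed value per transcript and library, in a unit that its header does not name, and the values of all transcripts of a gene were summed. The median of the mean over both libraries was 0.501 for -DT genes and 0.422 for all genes. The 75 sums added up to 87.4 of 47632 in the resistant library (0.184%) and 88.2 of 46879 in the parental library (0.188%). A gene was compared if its mean over both libraries was at least 0.5, and 38 of the 75 -DT genes (50.7%) passed this floor, near the 46.9% of all genes. The filter uses the mean of both libraries, so it can pass a gene through the library in which it is high. The 3 genes just above it were IBA57-DT (mean 0.501), GMDS-DT (0.518) and ODC1-DT (0.520), and the 3 just below were GTSE1-DT (0.469), ITGB1-DT (0.451) and LY6E-DT (0.427). By the reading of counts given below, count over listed value times genomic locus length, introns included, was nearly constant in each library. The SD of its log2 was 0.0125 in SKOV3-OR over 3114 transcripts and 0.0123 in SKOV3 over 3429. These had a count of 0 in the other library and a minimum count of 20 in the library named. Counts of other transcripts could not be checked in this way. At an equal count a long locus is therefore listed lower than a short one where this was checked. This bears on the floor, the isoform shares and the rankings below. MAP4K3-DT-210, over 163883 bases, had a count of 1940 in SKOV3-OR and a listed value of 0.250. Log2 ratios are of SKOV3-OR over SKOV3 after adding a pseudocount of 0.1 to both sums, which understates the change of low genes. The listed isoforms of the partner genes were not their mRNAs. Of 240 listed transcripts of -DT partners 239 were in GENCODE, where 146 were retained-intron and 93 processed transcripts and 0 were protein-coding. A partner value below is therefore the level of such non-coding isoforms and not of the mRNA. In bulk RNA, fewer cells with a transcript and less of it per cell cannot be told apart. Of the fixed markers, KRT8 (318 in SKOV3-OR and 166 in SKOV3), KRT7 (73.3 and 62.6), KRT18 (5.83 and 14.3) and ERBB2 (3.84 and 5.37) were listed above the floor in both libraries. EPCAM (0.00143 and 0.0412) and PAX8 (0.489 and 0.0738) were below it, MUC16 and WT1 were not analysed here, and of 9 markers of other cell types COL1A1 was the one listed (0.203 and 0.198). The transcript types behind the values of these markers, and of all genes together, are not given here. Those values may therefore not be mRNA levels either.

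Of the 38 -DT genes over the floor, 5 (13.2%) were at least 2-fold higher in the resistant library, against 17.9% of 7963 genes of all kinds over the same floor. At least 2-fold lower were 4 (10.5%), against 8.28% of all genes. The other 29 lay between. Both shares were near those of all genes, and with groups of 1 library no difference between the shares was tested. Among the 37 below the floor 5 (13.5%) were past 2-fold in each direction, against 13% higher and 10.4% lower of 9015 such genes. The median log2 ratio of the 38 was 0.13, against 0.23 for all genes, and 18 of the 38 were above the latter. Genes with LINC symbols had a median of 0.08 (103 over the floor, 15.5% at least 2-fold higher and 14.6% lower). Genes with -AS symbols had a median of 0.06 (227 over the floor, 8.37% higher and 9.69% lower). The partner genes themselves were spread more widely, with 10 of 41 at least 2-fold higher and 7 lower and a median of 0.15. The range between the quartiles was 1.64 for partners, 0.92 for -DT genes and 1.10 for all genes. When the resistant values were divided by the median ratio of all genes, the -DT counts went to 2 higher and 6 lower (12.2% and 11.8% of all genes) and their median to −0.0930, and adding 1 in place of 0.1 left 0 higher and 1 lower (6.64% and 3.45% of all genes).

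**Figure D2:**
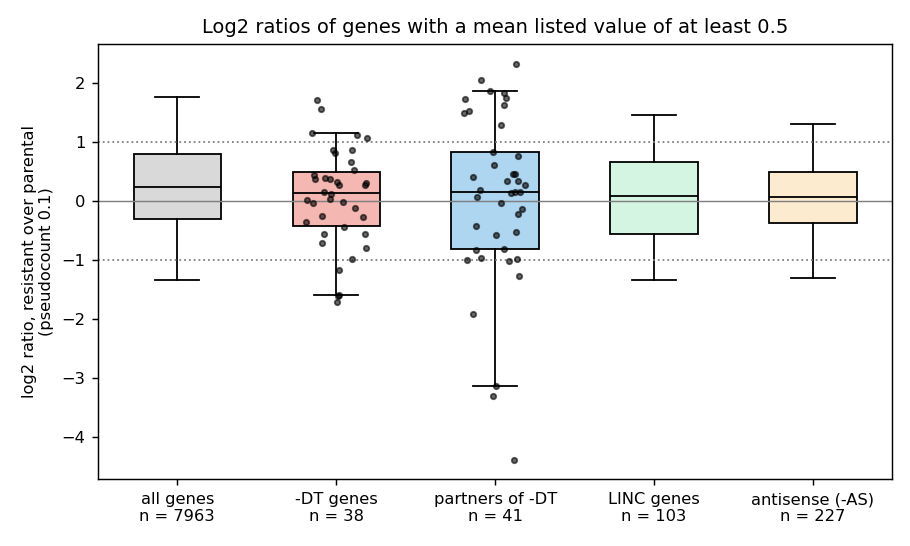
Log2 ratio of resistant over parental (y axis) for all genes, -DT genes, their partners, LINC genes and antisense genes with a mean listed value of at least 0.5 (x axis, number of genes below each name). Boxes span the quartiles with the median as a line, whiskers reach the 5th and 95th percentiles, points are single genes, and dotted lines mark 2-fold. The -DT median of 0.13 lies close to the other classes, and the partner box is the widest.

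GAS6-DT (ENSG00000272695, chromosome 13, 113864112 to 113866834) had the highest log2 ratio of the -DT genes over the floor, listed at 1.80 in SKOV3-OR and 0.484 in SKOV3 (1.70). Its partner GAS6, the secreted ligand of the TAM receptor kinases AXL, MERTK and TYRO3, had 1.14 and 0.882 (0.34). The 2 listed isoforms behaved differently: GAS6-DT-201 had 0.917 and 0.478, whereas GAS6-DT-203 had 0.882 and 0.00596. In the authors' deposited table the log2 fold change was 0.65 for GAS6-DT-201 (adjusted p = 0.256) and 5.99 for GAS6-DT-203 (adjusted p = 2.4e-14). Those p-values compare 2 libraries by a test whose name the sources used here do not give. Over all transcripts the log2 value ratio lay a median of 0.28 above the deposited log2 fold change. With GAS6-DT-203 left out, because its value ratio and its deposited fold change differ by more than that offset, the log2 ratio was 0.82.

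GMDS-DT (chromosome 6, 2245759 to 2413591) had 0.822 in SKOV3-OR and 0.213 in SKOV3 (log2 ratio 1.56). GMDS, the dehydratase that starts GDP-fucose synthesis from GDP-mannose, had 0.804 and 0.433 (0.76), so both genes of the pair were above the median of all genes. Of the 9 GMDS-DT isoforms, GMDS-DT-227 had 0.271 and 0.0213 and GMDS-DT-211 had 0.225 and 0.0850. A further 2 isoforms, GMDS-DT-224 and GMDS-DT-230, had a parental count of 0 by the reading given below. ODC1-DT had 0.754 and 0.287 (1.14). Its partner ODC1, the rate-limiting enzyme of polyamine synthesis, was at least 2-fold higher as well, at 4.52 and 1.18 (1.85), and this was the only one of 24 pairs in which both genes were past 2-fold in the same direction. The ODC1-DT difference came from ODC1-DT-203, at 0.615 and 0.128, while ODC1-DT-202 had 0.0337 and 0.1205.

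MAFG-DT had 1.77 in SKOV3-OR and 0.797 in SKOV3 (log2 ratio 1.06), from a single transcript. Its partner MAFG, a small MAF factor that pairs with NRF2, was not analysed here. CNNM3-DT, also a single transcript, had 0.994 and 0.406 (1.11), and its partner CNNM3, of a family linked to magnesium transport, was below the floor at 0.367 and 0.263. The authors' deposited table gave CNNM3-DT-201 a log2 fold change of 0.99 (adjusted p = 0.0931) and MAFG-DT-201 one of 0.87 (adjusted p = 0.0897).

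The other 7 of the 12 highest were higher in the resistant library by less than 2-fold. FAM111A-DT had 1.47 and 0.762 (log2 ratio 0.86), and FAM111A, a protease that acts on proteins crosslinked to DNA, went the other way at 0.922 and 1.74 (−0.84). DNAJC3-DT had 1.13 and 0.581 (0.86) and no listed partner, and its direction turned, to −2.17, without the transcript whose value ratio and deposited fold change differ. KDM7A-DT had 3.21 and 1.78 (0.81), beside a partner, a histone demethylase, that was below the floor at 0.241 and 0.166. MAP3K2-DT had 1.65 and 1.01 (0.65), and RAB30-DT had 5.70 and 3.96 (0.51). CAPN10-DT had 1.15 and 0.830 (0.43), with the calpain gene CAPN10 at 5.35 and 6.30 (−0.23). EDRF1-DT had 2.29 and 1.74 (0.38), with EDRF1 at 4.69 and 4.23 (0.14).

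NUP50-DT (ENSG00000226328, chromosome 22, 45133020 to 45163781) had the lowest log2 ratio, with 2.08 in SKOV3-OR and 7.10 in SKOV3 (−1.73). NUP50, a nucleoporin of the nuclear basket that takes part in protein import, was nearly level at 1.66 and 1.49 (0.15). The NUP50-DT difference lay in NUP50-DT-203, at 1.17 and 6.59, which made up 56.1% of the gene in SKOV3-OR and 92.8% in SKOV3. NUP50-DT-201 had 0.656 and 0.252 and NUP50-DT-204 had 0.252 and 0.0605, so these isoforms were higher in the resistant library. The authors' deposited table lists log2 fold changes of −2.78 for NUP50-DT-203 (adjusted p = 1.39e-09), 1.09 for NUP50-DT-201 (adjusted p = 0.0220) and 1.74 for NUP50-DT-204 (adjusted p = 0.00280).

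ZNF426-DT had 0.220 in SKOV3-OR and 0.886 in SKOV3 (log2 ratio −1.62), and its partner ZNF426, a KRAB zinc finger gene, was not analysed here. The lower sum came from ZNF426-DT-202, at 0.00790 and 0.755, while ZNF426-DT-203 had 0.208 and 0.0365. ZNF426-DT-202 had a count of 0 in SKOV3-OR by the reading given below, and with the transcripts whose value ratio and deposited fold change differ left out, the log2 ratio of ZNF426-DT was 1.17. CSTF3-DT had 0.237 and 0.929 (−1.61), beside CSTF3, a subunit of the cleavage stimulation factor, below the floor at 0.440 and 0.189. The direction of CSTF3-DT is not settled by the table. Its main isoform CSTF3-DT-201 had 0.197 in SKOV3-OR and 0.791 in SKOV3, yet the authors' deposited log2 fold change for it was 11.26 (adjusted p = 1.47e-23), which corresponds to counts of 279 and 0. With values at such a count of 0 set to 0, the log2 ratio of CSTF3-DT was 0.49.

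DOCK9-DT had 0.515 and 1.29 (log2 ratio −1.17) from a single transcript, and DOCK9, an exchange factor for the GTPase CDC42, was below the floor at 0.413 and 0.516. IBA57-DT stood just short of 2-fold at 0.302 and 0.7004 (−0.99 with the pseudocount of 0.1). With a pseudocount of 0.01 its log2 ratio was −1.19, and with 1 it was −0.39. Its partner IBA57, of mitochondrial iron-sulfur cluster assembly, had 0.0143 and 0.00297. Log2 fold changes in the authors' deposited table were −1.57 for DOCK9-DT-201 (adjusted p = 0.0116) and −1.49 for IBA57-DT-202 (adjusted p = 0.0459). MAN1B1-DT had 3.22 and 5.67 (−0.80) with its partner MAN1B1, an alpha-mannosidase of glycoprotein quality control, level at 2.65 and 2.52 (0.07). NCK1-DT had 2.51 and 4.21 (−0.72), and the adaptor gene NCK1 was below the floor at 0.236 and 0.450.

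Of the remaining low genes, EPB41L4A-DT had 1.24 in SKOV3-OR and 1.89 in SKOV3 (log2 ratio −0.57), while EPB41L4A had 1.90 and 1.36 (0.45). CAMTA1-DT had 1.37 and 2.07 (−0.57), and the transcription activator gene CAMTA1 was lower too, at 4.02 and 7.19 (−0.82). OSER1-DT had 3.75 and 5.18 (−0.46) and no listed partner. CTBP1-DT had 0.534 and 0.713 (−0.36), and UVRAG-DT had 0.554 and 0.691 (−0.27).

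**Figure D3:**
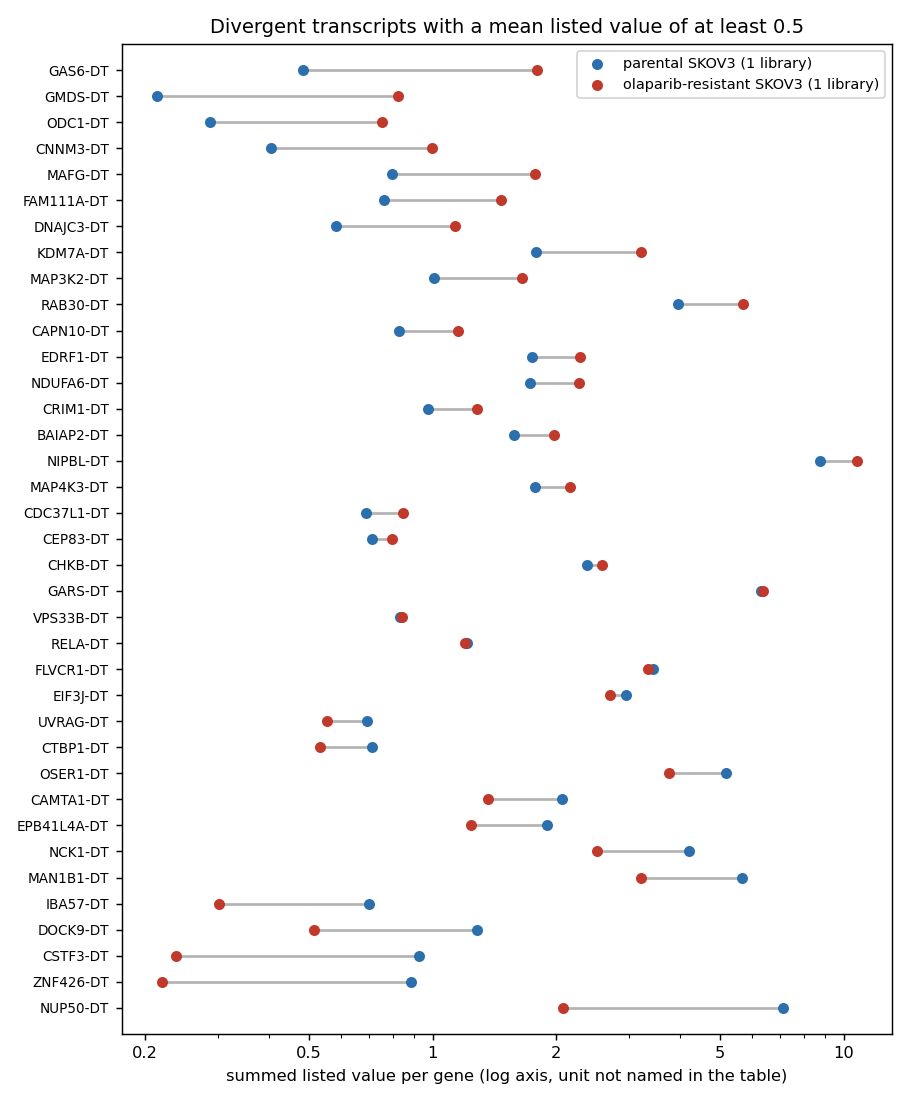
Summed listed value per gene (x axis, log scale, unit not named in the table) in the parental and the resistant library for 37 of the 38 -DT genes over the floor (y axis), ordered by log2 ratio. Points are single libraries. GAS6-DT is at the top with 0.484 and 1.80 and NUP50-DT at the bottom with 7.10 and 2.08.

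The 10 -DT genes with the largest mean made up 50.5% of the -DT sum in SKOV3-OR and 59.0% in SKOV3, and of these NUP50-DT alone was past 2-fold. NIPBL-DT led at 10.8 and 8.77 (log2 ratio 0.30), with NIPBL, the cohesin loader, at 2.08 and 1.56 (0.40). NIPBL-DT-203, a single-exon transcript of 5337 bases in GENCODE, carried 96.1% and 96.5% of it. Its log2 ratio was 0.29, and its log2 fold change in the authors' deposited table was 0.01. These differ by about the median offset over all transcripts, 0.28. GARS-DT, with 33 listed isoforms, had 6.38 and 6.30 (0.02), whereas GARS, the glycyl-tRNA synthetase, had 24.7 and 8.57 (1.52). FLVCR1-DT had 3.34 and 3.43 (−0.04) with FLVCR1, a transporter gene linked to heme and choline, at 2.92 and 3.98 (−0.43). EIF3J-DT had 2.71 and 2.96 (−0.12) with the initiation factor gene EIF3J at 3.55 and 2.80 (0.33).

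The next question was whether a divergent transcript and its partner differed between the libraries in the same way. Of the 75 partners 60 were listed, and in 24 pairs both genes were over the floor. In 14 of the 24 pairs both genes were on the same side of the median of all genes, and in 10 they were on opposite sides. Across the 24 pairs Pearson's r of the log2 ratios was 0.20 and Spearman's rho 0.14, as a description of pairs that share 2 libraries. Without the CTBP1 pair, which has the lowest partner ratio, r was 0.15 and rho 0.07 over 23 pairs. For 103 pairs of an antisense (-AS) gene and its partner the same values were −0.15 and −0.01, with 56 of 103 on the same side. The median of the -DT ratio minus the partner ratio was 0.09, and the median size of the difference, whatever its sign, was 0.83. Thus 11 of 24 pairs differed by more than 2-fold between the 2 genes. For the -AS pairs the median size was 0.56, and 32 of 103 differed by more than 2-fold.

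In 7 of the 24 pairs the partner was at least 2-fold higher (5) or lower (2), and in 6 of these 7 the -DT gene stayed between, as did 29 of all 38 -DT genes over the floor. The most negative differences belonged to UVRAG-DT (−2.02), NUP50-DT (−1.87), GARS-DT (−1.50), MAP4K3-DT (−1.36) and CEP83-DT (−1.15). In 4 of these 5 pairs, all but that of NUP50, the partner was past 2-fold higher. UVRAG, an autophagy gene, had 1.41 in SKOV3-OR and 0.351 in SKOV3 (log2 ratio 1.74). The kinase gene MAP4K3 had 1.43 and 0.398 (1.62), beside MAP4K3-DT at 2.15 and 1.78 (0.26). CEP83, of the centriole's distal appendages, had 2.81 and 1.09 (1.29), beside CEP83-DT at 0.796 and 0.712 (0.14).

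The largest positive differences belonged to CTBP1-DT (2.78), FAM111A-DT (1.71), GAS6-DT (1.36), CRIM1-DT (1.34) and BAIAP2-DT (1.31). CTBP1, a transcriptional corepressor, had 2.33 in SKOV3-OR and 21.3 in SKOV3 (log2 ratio −3.14), while CTBP1-DT was at −0.36. CRIM1, a membrane protein that binds BMPs, had 1.20 and 2.48 (−0.98) against 1.28 and 0.976 (0.36) for CRIM1-DT. BAIAP2, a scaffold of membrane protrusions, had 1.12 and 2.35 (−1.002) against 1.97 and 1.58 (0.31) for BAIAP2-DT. The closest pair was RELA-DT and the NF-kB subunit gene RELA, at −0.02 and −0.04. Of the 11 pairs whose starts lay 0 to 300 bases apart, 8 were on the same side of the median, and of the other 13 pairs 6 were. Reads could be shared where the loci of a pair overlap, since nothing states how strand was counted. The listed loci overlap in 2 of the 24 pairs (CHKB-DT and FAM111A-DT), and without them 13 of 22 were on the same side. In CTBP1-DT and RELA-DT the RefSeq 5′ ends overlap although the listed loci do not, and without all 4 pairs 11 of 20 were on the same side.

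**Figure D4:**
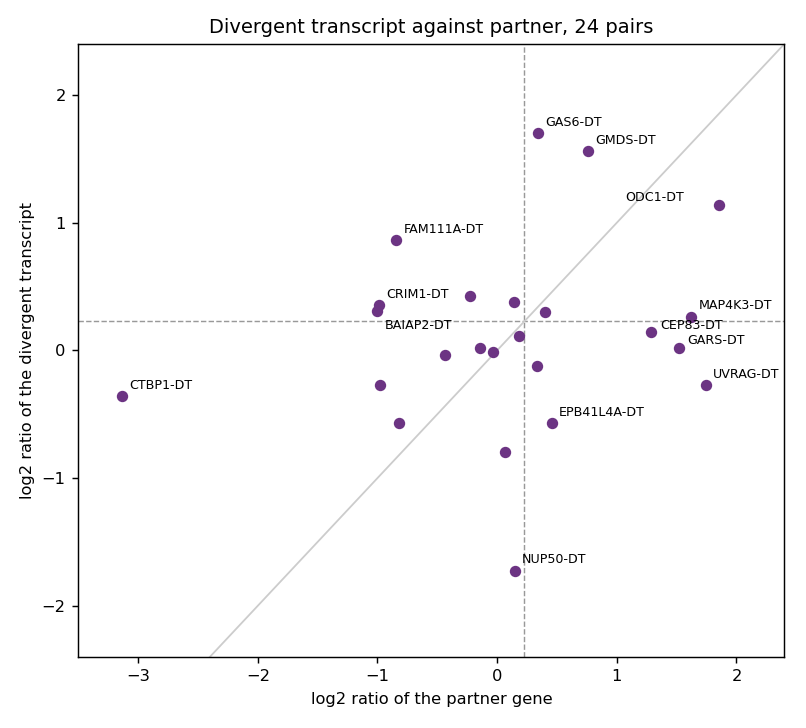
Log2 ratio of the partner gene (x axis) against that of the divergent transcript (y axis) for 24 pairs with both genes over the floor. The solid line marks equal ratios and dashed lines the median of all genes (0.23). Partners run from −3.14 (CTBP1) to 1.85 (ODC1) and divergent transcripts from −1.73 (NUP50-DT) to 1.70 (GAS6-DT).

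Single isoforms could differ where the gene sum did not. Of the 38 genes over the floor, 27 had 2 or more listed transcripts, and in 6 of these another transcript led in each library. The matching share over all genes is not given here. In OSER1-DT, divergent to a gene that responds to oxidative stress, OSER1-DT-206 led in the parental library (2.36, or 45.5% of the gene) and had 0.667 (17.8%) in the resistant library. OSER1-DT-204 had 1.501 (40.01%) in SKOV3-OR and 0.161 (3.10%) in SKOV3. The authors' deposited table gave OSER1-DT-206 a log2 fold change of −2.10 (adjusted p = 4.88e-06) and OSER1-DT-204 one of 2.93 (adjusted p = 6.41e-10). The 2 isoforms lay on either side of a sum that differed by less than 2-fold.

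DNAJC3-DT, divergent to an ER co-chaperone gene, showed the same pattern. DNAJC3-DT-204 made up 98.7% of the gene in SKOV3-OR (1.12) and 28.7% in SKOV3 (0.167), and DNAJC3-DT-201 made up 1.28% (0.0145) and 71.3% (0.414). DNAJC3-DT-204 had a count of 0 in SKOV3 and of 217 in SKOV3-OR by the reading given below, so its listed parental value and the shares built on it are uncertain. The log2 ratio of DNAJC3-DT was 2.19 with DNAJC3-DT-204 alone and −2.17 with DNAJC3-DT-201 alone. ZNF426-DT went from 85.2% of ZNF426-DT-202 in the parental library to 94.6% of ZNF426-DT-203 in the resistant one. The other genes with a different leading transcript were CDC37L1-DT, GARS-DT and GMDS-DT.

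**Figure D5:**
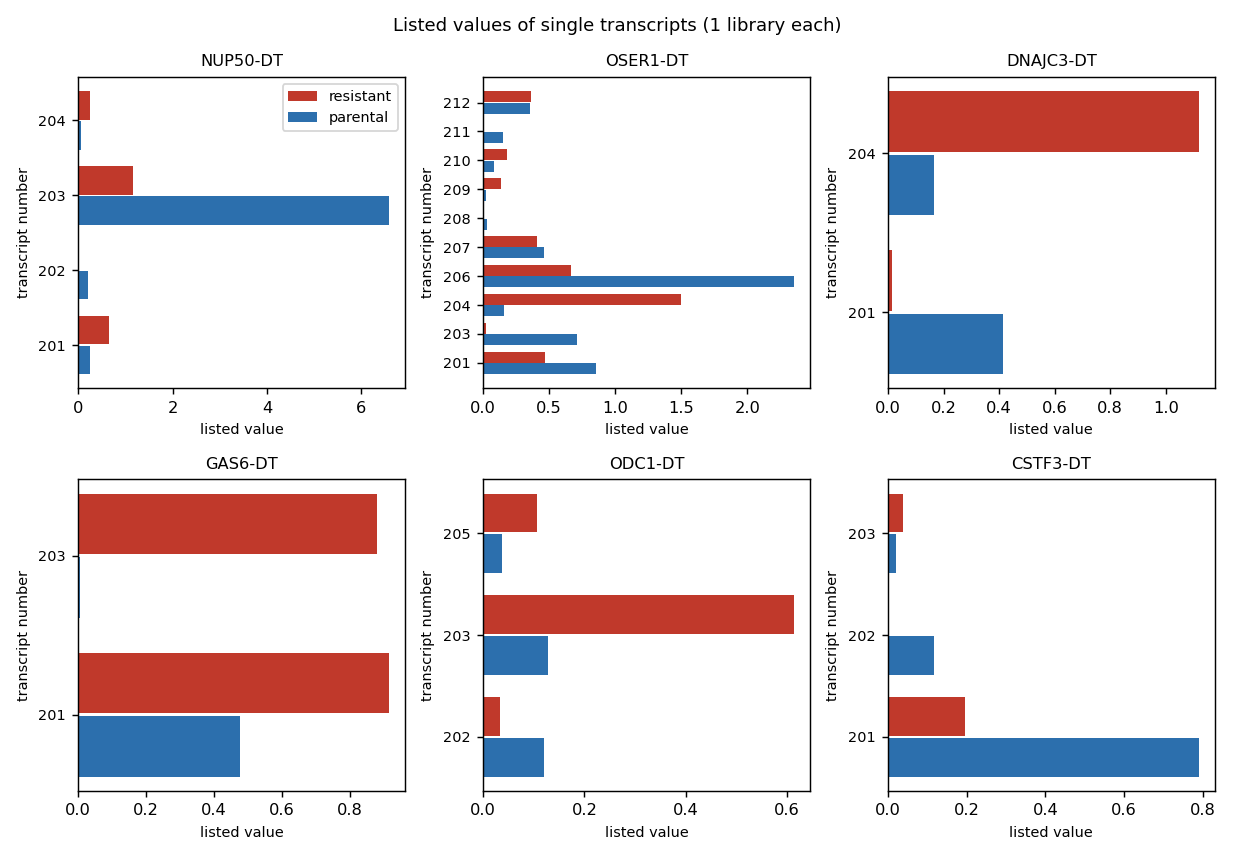
Listed value (x axis) of each transcript (y axis, transcript number) of 6 divergent genes in the resistant and parental library, 1 library each. In OSER1-DT and DNAJC3-DT the longest bar belongs to a different transcript in each library, and in NUP50-DT the difference lies mostly in NUP50-DT-203.

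How firmly single isoforms are known is limited by the table itself. The deposited fold changes were read as the ratio of a SKOV3-OR term to a SKOV3 term. Each term is a whole count plus a constant, divided by that constant, which was 0.114 for SKOV3-OR and 0.136 for SKOV3. This model was inferred from the deposited values. By this reading 67 of 223 -DT transcripts (30.0%) had a count of 0 in the resistant (41) or parental (26) library, against 22.3% of all transcripts, although a value above 0, up to 0.791, was listed there for all 67. Of the -DT transcripts in the authors' deposited table, 116 had an adjusted p under 0.05, 52 higher (23.3%, against 23.6% of all transcripts) and 64 lower (28.7%, against 22.3%), and 63 of the 116 (54.3%) were such transcripts with a count of 0, against 40.3% of all transcripts under that p. Of 26 -DT transcripts with a larger value of at least 1, those under that p were in NUP50-DT, OSER1-DT, DNAJC3-DT, NCK1-DT, MAN1B1-DT and DOCK9-DT. The matching share of the 8850 transcripts of all genes that reach 1 is not given here, so no comparison is drawn. Of the 9 -DT genes past 2-fold, 5 included a transcript with a count of 0, and 4 (DOCK9-DT, MAFG-DT, CNNM3-DT and GAS6-DT) did not. Of all 38 over the floor, 18 included one.

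Genes linked to how divergent transcripts end or are degraded were also read from the table. There 0 of 194 transcripts found in GENCODE were protein-coding, so the values again stand for non-coding isoforms. Genes were not split by whether they act for or against these steps, and U1 snRNP genes are among them. The 5 lists held 59 symbols, among them SKIV2L2, CPSF3L, ASUN and VWA9, which are older names of genes also held. Of the 59 symbols, 46 were listed and 35 were over the floor. These had a median log2 ratio of 0.38, against 0.23 for all genes, with 7 (20%) at least 2-fold higher and 1 (2.86%) lower, against 17.9% and 8.28% of all genes. The genes named below are those past 2-fold or below 0. Integrator genes had a median of 0.55 over 10 members, with the endonuclease subunit INTS11 at 30.5 in SKOV3-OR and 9.43 in SKOV3 (1.68), INTS9, its partner in the cleavage module, at 1.21 and 0.307 (1.68), and INTS8 at 11.6 and 4.95 (1.22). INTS14, INTS1 and INTS4 were slightly below 0, at −0.14, −0.11 and −0.02. Exosome genes had a median of 0.41 over 9 members, with the core subunit EXOSC9 at 2.15 and 0.919 (1.15), and with EXOSC1 at −0.78 and EXOSC5 at −0.31. The 4 NEXT and PAXT genes had a median of −0.18. Among these the PAXT subunit ZFC3H1 had 7.79 and 3.09 (1.31), and the NEXT subunit RBM7 had 0.359 and 0.654 (−0.72), with the helicase gene MTREX at −0.49. Cap-binding and ARS2 genes had a median of 0.40 over 4 members, with NCBP2 at 1.01 and 0.273 (1.57) and ZC3H18 at 1.22 and 3.24 (−1.34). Cleavage and early termination genes had a median of 0.54 over 8 members, with SNRNP70 of the U1 snRNP at 16.7 and 7.66 (1.12), and with the termination factor gene PCF11 at −0.25, CPSF1 at −0.13 and SNRPA at −0.02. Whether these values bear on the levels of -DT transcripts was not tested.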

How the data were processed

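The labels' protocols give ribosomal RNA-depleted total RNA from 2 SKOV3 cultures. The submitters' processing notes name HISAT2 and StringTie, without versions, and the build mm10, although the deposited table holds human identifiers and GRCh38 loci. The authors' values are a normalized expression signal per transcript, with no unit per the file headers, so absolute depth was not derived and no interval is given. Relative to listed value and locus length, the counts read from deposited fold changes were higher in SKOV3 than in SKOV3-OR. The deposited log2 fold change comes with a p-value before and after adjustment, from a test that is not stated.

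Here the signal was summed per gene name (Python 3.11.15, pandas 2.3.3, numpy 2.4.6), with a pseudocount of 0.1, a floor of 0.5 on the mean and a threshold of 2-fold. Counts of 0 were read from deposited fold changes as whole numbers within 0.0001 (0.001 at 1000 or more). This step was tested on data simulated from the same model, so the test cannot show whether the deposited fold changes follow that model. Other pseudocounts, floors, folds, scalings and transcript choices were tried. Nothing states that the libraries are from replicate cultures. Promoters were from RefSeq, matched by symbol for 58 of 75 genes, and GENCODE release 29 gave strands and types. Members, lists, thresholds and the rule for named genes (the 12 highest and 12 lowest log2 ratios, the 10 largest means, and the 5 widest pair differences each way) were chosen with earlier results of these data known. Some genes that the rule names are not reported here. The list of 20 transcripts deposited beside the table was not used.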

Additional observations from a re-analysis of the deposited data

How the results depend on the processing

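Each group had 1 library, so no library could be left out. No paired analysis was possible because each group holds 1 sample. A value counts as moved past 1.5-fold for a gene, 0.1 for a median, 0.2 for a correlation, or a factor of 1.5 for a count. The limit for a correlation exceeds the pair correlation itself, 0.199, so a fall to 0 would not count as moved. The numbers of -DT genes past 2-fold, 5 higher and 4 lower, were 0 and 1 with a pseudocount of 1 (all genes: 6.64% and 3.45%), 10 and 9 of 75 with no filter on low values (15.3% and 9.39%), 2 and 1 of 24 with a mean of at least 1 (16.6% and 7.53%), and 2 and 2 of 32 with discordant transcripts left out (17.8% and 7.28%), those whose value ratio and deposited fold change differ by over 0.3 on the log2 scale after their common offset. Rescaling by the median ratio gave 2 higher and 6 lower and turned the -DT and partner medians to −0.0930 and −0.0786. At 1.5-fold there were 9 higher and 7 lower (33.4% and 16.2%), and at 3-fold 1 higher and 3 lower (6.57% and 3.62%). Without the filter the partner median was 0.34, the pair difference turned to −0.10 and 32 of 60 pairs were on the same side. With a mean of at least 1, 9 of 16 pairs were, and the pair correlation was reversed, at −0.0592. Taking 1 transcript per gene, that of largest mean, gave a -DT median of 0.23 and a partner median of 0.0367. The pair correlation was then 0.02 over 17 pairs. CSTF3-DT turned to 0.49 with values at a count of 0 set to 0 and to 0.19 with discordant transcripts left out, and ZNF426-DT to 1.17 and DNAJC3-DT, from 0.86, to −2.17 in the latter. In these the transcripts that carry the difference are the ones set to 0 or left out. For the other alternatives the cause was not tested. Of 232 recomputed log2 ratios of named genes, 6 changed sign: these 4, GARS-DT when rescaled (−0.22) and FLVCR1-DT with its transcript of largest mean (0.0961), both near 0 in the report. Of the 232, 15 moved past 1.5-fold and a further 3, of CSTF3-DT and ZNF426-DT, were reversed. A pseudocount of 1 moved CNNM3-DT, CSTF3-DT, GAS6-DT, GMDS-DT, IBA57-DT, ODC1-DT (to 0.45) and ZNF426-DT, each to a smaller change. Leaving out discordant transcripts moved DNAJC3-DT and GAS6-DT. With the transcript of largest mean, GAS6-DT and GMDS-DT (0.81) had a smaller change. DNAJC3-DT, NUP50-DT, OSER1-DT (−1.68) and ZNF426-DT then had a larger one. Leaving out pairs whose RefSeq 5′ ends overlap, chosen after seeing the data, moved no pair value past its limit.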

Other observations

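Below the floor of 0.5 lay 37 -DT genes, with means between 0.00438 and 0.469. Of these 20 were higher and 17 lower in the resistant library. LY6E-DT, near a gene for a surface protein of the LY6 family, had 0.734 in SKOV3-OR and 0.119 in SKOV3 (log2 ratio 1.93), while LY6E had 1.28 and 1.90 (−0.54). ITGB1-DT, divergent to the beta-1 integrin gene, had 0.696 and 0.205 (1.38), and ITGB1 had 0.262 and 0.192 (0.31). KLHL7-DT had 0.515 and 0.143 (1.34), and its partner KLHL7 had 2.32 and 0.586 (1.82).

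In another low pair both genes were lower. FAM160A1-DT had 0.00379 in SKOV3-OR and 0.326 in SKOV3 (−2.04), and FAM160A1 had 0.0237 and 2.496 (−4.39). Others went apart: ITPR1-DT had 0.0493 and 0.354 (−1.60), while the calcium channel gene ITPR1 had 6.203 and 2.14 (1.49), and IL10RB-DT had 0.329 and 0.0954 (1.13), while IL10RB had 1.92 and 19.99 (−3.31). Partner values are again of non-coding isoforms. By the deposited fold changes FAM160A1-DT had a count of 0 in SKOV3-OR, and all 4 transcripts of LY6E-DT had a value ratio and a deposited fold change that differed. These pairs were chosen after their values were seen, and values this low have no error estimate.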
